A study of Mus musculus with 12 samples.

Results

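Globin chain genes encode the protein chains of hemoglobin. The genes described here are the 6 rows, of 32699 in the deposited tables, whose symbol is Hba-a2 or Hba-x (alpha-like chains) or Hbb-bs, Hbb-b2, Hbb-bh1 or Hbb-y (beta-like chains). They were chosen by name and by no measured value. RNA was sequenced from the mouse erythroid progenitor line G1E-ER4 in 4 groups of 3 libraries. TMG_E2 cells received 10 µM Thiamet-G (TMG) together with 1 µM β-estradiol (E2), E2 cells received 1 µM E2, TMG cells received 10 µM TMG, each for 30 h, and Ctrl cells received no treatment. Cells of all 4 groups express the GATA-1ER fusion, in which the transcription factor GATA-1 becomes active when E2 binds the receptor part, and all were grown under puromycin with erythropoietin and stem cell factor. TMG inhibits OGA, the enzyme that takes the sugar O-GlcNAc off proteins. The line is the only one in the series, and no group was given E2 without carrying the fusion, so effects of E2 on other targets and effects of GATA-1ER cannot be told apart. Nothing in the labels says that the replicates were separate cultures, so p-values reflect how these libraries vary, which may be technical variation alone.

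Hemoglobin is assembled from alpha-like and beta-like chains in equal numbers, each holding a heme group. In the mouse the alpha-like genes lie on chromosome 11 and the beta-like genes on chromosome 7, in clusters opened by distant enhancers that GATA-1 and its partners occupy in erythroid cells. The first red cells of the yolk sac use the embryonic chains Hba-x (zeta), Hbb-y (epsilon) and Hbb-bh1, while red cells of the fetal liver and adult marrow use the adult chains. Hbb-bs belongs to the adult beta genes of the s haplotype of inbred mice and Hbb-b2 to those of the d haplotype. The labels do not say which haplotype the line carries. On GRCm38, the build of the files, Hba-x spans chromosome 11, 32276600 to 32278116, and Hba-a2 spans 32296492 to 32297310. Hbb-bs spans chromosome 7, 103826523 to 103827928, Hbb-bh1 spans 103841638 to 103843162 and Hbb-y spans 103851754 to 103853207. Hbb-b2 is given here without a position.

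The 150 bases before the transcription start are shown for the 4 members found in the RefSeq promoter table (GRCm38.p6), because these genes moved together with E2. Capitals mark 5-base motifs, searched on both strands. They are CACCC, the core of the sites bound by KLF1; CCAAT, the box of that name; GATAA, the core bound by GATA factors; TATAA, the usual form of the TATA box; and its variant ATAAA.
Hba-a2, chr11:32296342-32296491, plus strand: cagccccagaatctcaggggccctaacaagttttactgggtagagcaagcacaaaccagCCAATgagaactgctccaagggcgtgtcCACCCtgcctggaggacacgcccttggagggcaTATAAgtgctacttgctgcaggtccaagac
Hba-x, chr11:32276450-32276599, plus strand: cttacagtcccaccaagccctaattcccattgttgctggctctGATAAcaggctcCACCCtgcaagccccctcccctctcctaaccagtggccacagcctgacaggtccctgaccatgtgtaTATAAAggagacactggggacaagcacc
Hbb-bs, chr7:103827929-103828078, minus strand: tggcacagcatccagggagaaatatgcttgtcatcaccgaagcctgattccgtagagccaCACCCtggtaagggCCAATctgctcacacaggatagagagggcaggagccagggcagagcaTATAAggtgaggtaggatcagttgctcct
Hbb-y, chr7:103853208-103853357, minus strand: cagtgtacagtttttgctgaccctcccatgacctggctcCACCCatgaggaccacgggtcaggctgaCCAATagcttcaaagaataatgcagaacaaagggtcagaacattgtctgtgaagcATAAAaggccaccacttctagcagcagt
CACCC occurs in all 4 windows, beginning 63, 95, 90 and 111 bases before the start in Hba-a2, Hba-x, Hbb-bs and Hbb-y, and in 37.4% of 32851 promoter windows of the same length. CCAAT occurs in Hba-a2, Hbb-bs and Hbb-y, beginning 91, 76 and 83 bases before the start, and in 24.5% of all windows. GATAA occurs in Hba-x, beginning 107 bases before the start, and in 13.4% of all windows. TATAA occurs in Hba-a2, Hba-x and Hbb-bs, beginning 30, 28 and 29 bases before the start (14.2% of all windows). ATAAA occurs in Hbb-y and Hba-x, beginning 28 and 27 bases before the start (24.1% of all windows), and in Hba-x it overlaps TATAA. These are matches of letters and not measured binding sites.

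How far reads can separate the chains depends on how much their coding sequences differ, so the first 60 coding bases of 5 members are shown from the GENCODE transcripts. In Hba-x, capitals mark bases that differ from Hba-a2, and in Hbb-bh1 and Hbb-y those that differ from Hbb-bs.
Hba-a2: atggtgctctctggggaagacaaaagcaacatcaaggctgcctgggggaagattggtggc
Hba-x: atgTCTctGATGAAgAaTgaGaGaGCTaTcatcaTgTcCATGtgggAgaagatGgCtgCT
Hbb-bs: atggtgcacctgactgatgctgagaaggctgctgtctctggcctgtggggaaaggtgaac
Hbb-bh1: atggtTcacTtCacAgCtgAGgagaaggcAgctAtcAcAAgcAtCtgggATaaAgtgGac
Hbb-y: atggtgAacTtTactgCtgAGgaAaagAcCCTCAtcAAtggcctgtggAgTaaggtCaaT
Of these 60 bases, Hba-x differs from Hba-a2 at 28, Hbb-bh1 from Hbb-bs at 18 and Hbb-y from Hbb-bs at 19. Over the whole coding sequence Hba-x is 61.8% identical to Hba-a2, with no identical run longer than 18 bases, and Hbb-bh1 and Hbb-y are 74.1% and 74.3% identical to Hbb-bs, with none longer than 22. Hba-a2 differs from its neighbour Hba-a1 at 1 of 429 coding bases, so the Hba-a2 row, which holds 2 transcript models, cannot be told apart from Hba-a1, which is not analysed here.

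The deposited expected counts are estimates by RSEM, a program that divides reads matching several genes. The counts of Hba-a2, Hba-x, Hbb-bh1 and Hbb-y were whole numbers, within 0.02, in 12 of 12 libraries. Those of Hbb-bs and Hbb-b2 were whole in 1 of 12 libraries each, while their sum was whole in 12 of 12. Reads were thus divided between the 2 adult beta rows, and the split between them is the program's estimate.

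Levels are given as TPM, in which transcript abundance is corrected for length and scaled to a fixed total per library, so that genes can be compared. Tests used expected counts, shown as CPM (counts scaled to a fixed library total) after adjustment by the trimmed mean of M-values (TMM). The libraries held 17589380 to 23178721 expected counts, and 3 counts equal 0.129 to 0.171 CPM depending on the library. TMG_E2 replicates differed from each other more than those of the other groups over all genes (chi-square per degree of freedom 7.10 to 10.7, against 2.22 to 3.56 within the other groups), and TMG_E2 replicate 1 had the lowest Hba-a2 level of its group. The cell type label reads embryonic stem cell, but the 8 embryonic stem cell markers listed summed to at most 0.348 CPM in any library and 5 of them, Pou5f1 among them, were at 0 in all. The 13 erythroid markers summed to 13361 to 14799 CPM in TMG_E2, 14669 to 15003 in E2, 3025 to 3110 in TMG and 2869 to 2871 in Ctrl. Markers of other blood cells moved with E2 as well: the 7 mast cell markers (2 at 0 in all libraries) summed to 0.410 to 0.562 CPM in TMG_E2, 0.381 to 0.976 in E2, 79.5 to 95.7 in TMG and 80.3 to 104 in Ctrl. The 8 megakaryocyte markers (4 at 0 in all) summed to 35.9 to 42.0 CPM in libraries with E2 and 76.8 to 93.5 in those without. Nbeal2 made up most of that sum, with means of 24.3 CPM in TMG_E2, 25.1 in E2, 72.2 in TMG and 80.8 in Ctrl. Pf4 was also lower with E2, Itga2b changed little, and Gp9 went the other way (7.39, 5.96, 1.38 and 0.835 CPM in the same order). The megakaryocyte markers thus did not fall as a set. What part the markers of other blood cells had in the globin results was not tested. In RNA from whole cultures, fewer cells expressing a gene and less RNA per cell cannot be told apart.

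The adult alpha chain was the member with the most RNA before E2. Hba-a2 had 50862, 61988 and 61856 TPM in TMG_E2 libraries, 55679, 57353 and 54750 TPM in E2 libraries, 1478, 1584 and 1612 TPM in TMG libraries, and 962, 859.9 and 943 TPM in Ctrl libraries. The TMG and Ctrl libraries did not overlap, whereas the TMG_E2 values spanned those of E2. Ranked by TPM among all 32699 genes, Hba-a2 was 1st or 2nd in each TMG_E2 library, 2nd in each E2 library, 110th to 116th in TMG and 147th to 155th in Ctrl.

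Hba-x, the embryonic zeta chain, appeared with E2 and at a small fraction of the adult level. It had 24.0, 24.9 and 26.3 TPM in TMG_E2 and 26.2, 26.9 and 30.5 TPM in E2. In the TMG libraries it had 0 counts, and in Ctrl 1 count in replicate 3 and 0 in the others. The groups with and without E2 were fully apart, and the TMG_E2 and E2 values overlapped. It made up 0.0433% ± 0.0035 of alpha-like TPM in TMG_E2 and 0.0499% ± 0.00497 in E2 (SD, n = 3).

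As the program divided the reads, Hbb-bs carried nearly all of the adult beta RNA once E2 was given. It had 61665, 61886 and 59966 TPM in TMG_E2, 61764, 60340 and 55100 TPM in E2, 117, 98.8 and 88.9 TPM in TMG, and 72.7, 60.4 and 61.2 TPM in Ctrl. TMG and Ctrl libraries did not overlap and TMG_E2 and E2 libraries did. Its rank by TPM was 1st in each E2 library and 1st or 2nd in TMG_E2, against 1205th to 1569th in TMG and 1985th to 2325th in Ctrl.

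By the same division of reads, Hbb-b2 was far lower than Hbb-bs and rose less. Whether its level reflects RNA of a separate gene or the division of reads was not tested. It had 284, 218 and 221 TPM in TMG_E2, 293, 218 and 227 TPM in E2, 16.9, 12.3 and 10.6 TPM in TMG, and 12.1, 8.18 and 8.67 TPM in Ctrl. Only the difference between libraries with and without E2 exceeded the spread, since TMG overlapped Ctrl and TMG_E2 overlapped E2. Replicate 1 was the highest Hbb-b2 library in each of the 4 groups.

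Among the embryonic beta-like chains, Hbb-bh1 exceeded Hbb-y. Hbb-bh1 had 69.8, 62.9 and 61.2 TPM in TMG_E2, 55.2, 45.1 and 42.9 TPM in E2, 0.34, 0.71 and 0.78 TPM in TMG, and 0.17, 0.68 and 0.49 TPM in Ctrl. Every TMG_E2 library was above every E2 library, while TMG and Ctrl, with 10 and 8 counts over 3 libraries each, overlapped. Hbb-y, the epsilon-like embryonic chain, had 4.08, 5.56 and 3.10 TPM in TMG_E2 and 1.93, 3.31 and 2.84 TPM in E2, which overlapped. It had 1, 1 and 0 counts in the TMG libraries and 0, 0 and 1 in the Ctrl libraries.

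With E2 the order of mean TPM was Hbb-bs, Hba-a2, Hbb-b2, Hbb-bh1, Hba-x and Hbb-y in both groups. Hbb-bs and Hba-a2 overlapped across libraries in TMG_E2 and in E2, so these neighbours did not differ beyond their spread, although Hbb-bs was the higher in each E2 library. Each lower step was larger than the spread. Without E2 the order was Hba-a2, Hbb-bs, Hbb-b2 and Hbb-bh1 in both groups, and the levels of these 4 genes did not overlap, while Hbb-y and Hba-x lay at or within 1 count per library.

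**Figure D1:**
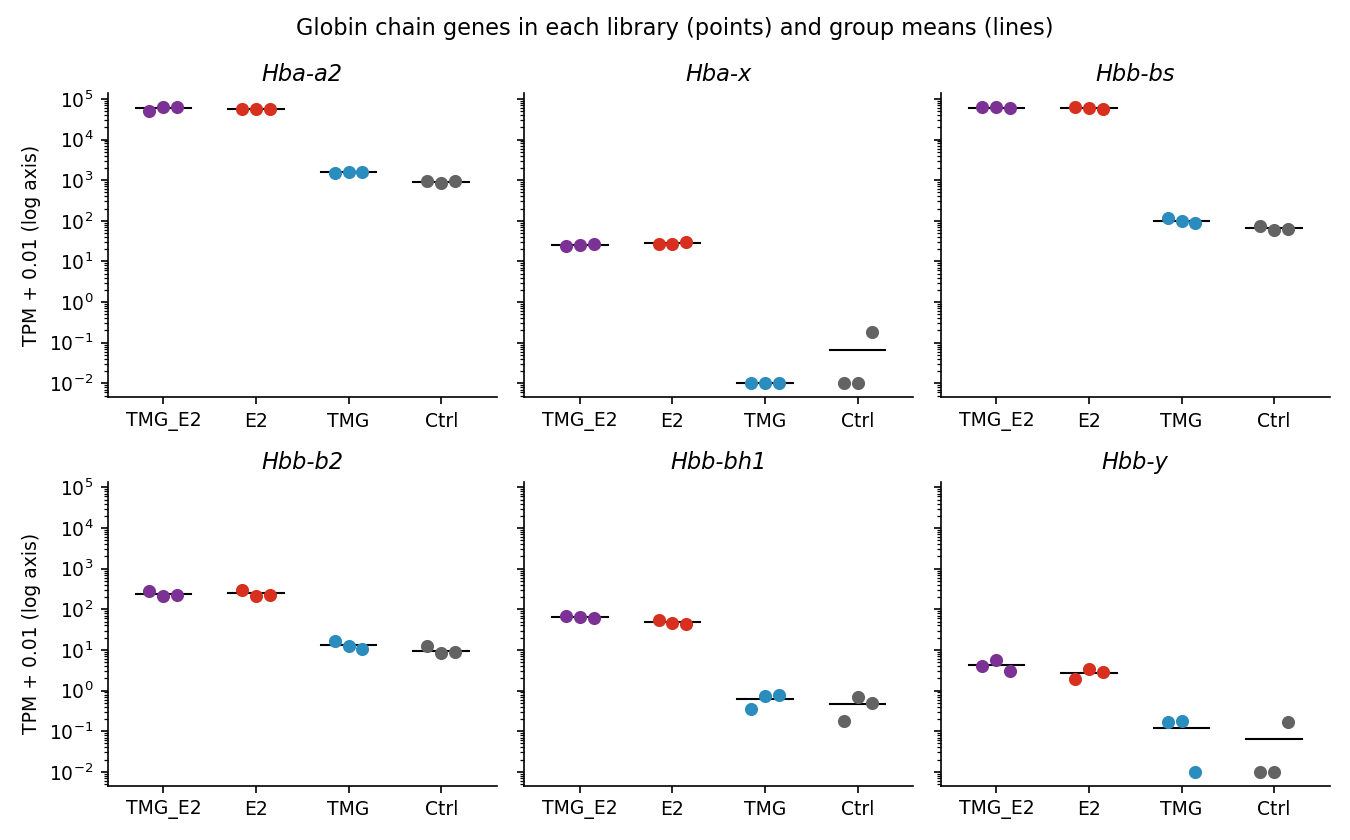
TPM of the 6 globin chain genes in each of 12 libraries (points) and group means (lines), plotted as TPM + 0.01 on a log axis, with TMG_E2, E2, TMG and Ctrl from left to right. Libraries with E2 lie above those without E2 for every gene, and Hba-a2 and Hbb-bs also lie higher in TMG than in Ctrl.

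E2 raised every globin chain gene whose level could be tested. Between E2 and Ctrl, 82.7% of 8273 genes passed the edgeR test (adjusted p under 0.05) and 41.5% passed with a higher level in E2, so a call alone says little and the sizes are given. The expression filter (over 10 CPM in at least 2 libraries) kept 4 members, of which Hbb-b2 and Hbb-bh1 passed only through libraries with E2 and thus had to differ. All 4 were higher in E2, at a median log2 of 6.49 against -0.000765 for all genes tested. Hbb-bs rose by log2 10.03 ± 0.10 (SE; 1048-fold; edgeR adjusted p = 3.01e-21), the 4th highest change of 8273 genes. Hbb-bh1 rose by 6.86 ± 0.22 (edgeR adjusted p = 8.08e-15) and Hba-a2 by 6.13 ± 0.10 (edgeR adjusted p = 9.20e-19), the 10th and 14th highest. Hbb-b2 rose by 4.87 ± 0.16 (edgeR adjusted p = 1.46e-14), the 27th highest. Hba-a2 and Hbb-bs averaged 55927 and 59068 TPM in E2, and the smaller fold change of Hba-a2 went with its higher Ctrl level of 922 ± 54.4 TPM, where Hbb-bs had 64.8 ± 6.87 TPM (SD, n = 3).

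Hba-x and Hbb-y, at most 9.03 and 1.74 CPM in any library, did not pass the filter. With no filter, 6 of 6 members were called higher in E2 than in Ctrl (16108 genes tested, 26.5% higher). Hba-x had 507 counts over the E2 libraries against 1 over the Ctrl libraries, a ratio of 558 after scaling for depth (95% exact interval 99.7 to 22079, counting error only). Hbb-y had 52 counts against 1, a ratio of 57.2 (95% exact interval 9.83 to 2303, counting error only).

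The response to E2 in the presence of TMG, TMG_E2 against TMG, had 82.7% of genes called and 40.9% called higher. Hbb-bs rose by log2 9.41 ± 0.10, Hbb-bh1 by 6.89 ± 0.20, Hba-a2 by 5.41 ± 0.09 and Hbb-b2 by 4.35 ± 0.16, all past the edgeR test. Here too Hbb-b2 and Hbb-bh1 passed the filter only through libraries with E2 and thus had to differ. With no filter, 6 of 6 members were called higher (26.0% of genes higher). Hba-x had 455 counts in TMG_E2 against 0 in TMG, at least 154-fold higher when the TMG group as a whole is set at 3 counts. Hbb-y had 81 counts against 2, a ratio of 41.1 (95% exact interval 11.02 to 345, counting error only). Set against untreated cells, TMG_E2 was higher by 10.12 ± 0.10 for Hbb-bs, 7.34 ± 0.21 for Hbb-bh1, 6.23 ± 0.10 for Hba-a2 and 4.88 ± 0.16 for Hbb-b2, in a comparison with 84.2% of genes called and 41.9% higher. This comparison shares its TMG_E2 libraries with the previous one and its Ctrl libraries with E2 against Ctrl. The same limit of the filter holds in it for Hbb-b2 and Hbb-bh1.

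TMG alone raised the main adult chains in cells not given E2. Between TMG and Ctrl 5.15% of genes passed, 3.01% with a higher level in TMG, and 2 of the 4 tested members were called, both higher. Hba-a2 rose by log2 0.82 ± 0.08 (1.76-fold; edgeR adjusted p = 2.00e-05), with all 3 TMG libraries above all Ctrl libraries, and was the 16th highest change of 8273 genes. Hbb-bs rose by 0.71 ± 0.10 (1.64-fold; edgeR adjusted p = 0.000446), again with no overlap, the 22nd highest. Of all genes tested here, 15.2% were higher in TMG with no overlap. Hbb-b2 was at 0.53 ± 0.27 (edgeR adjusted p = 0.306) and Hbb-bh1 at 0.45 ± 0.60 (edgeR adjusted p = 0.763; 0.089 without Ctrl replicate 1 and 0.85 without Ctrl replicate 2), neither past the test. With replicate number added to the fit as a block, an alternative, Hbb-b2 passed at 0.52 ± 0.13 (edgeR adjusted p = 0.0152). Hbb-bh1 did not pass in that fit (edgeR adjusted p = 0.738). Over 3 libraries each, Hbb-b2 held 234 counts in TMG and 179 in Ctrl, and Hbb-bh1 held 10 and 8. A change of the size seen for Hba-a2 was thus not detectable for Hbb-bh1 at this depth. With the Hbb-bs and Hbb-b2 counts added, which removes the division of reads between them and was tried after seeing the data, the adult beta rows rose by 0.69 ± 0.10 (edgeR adjusted p = 0.000807).

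Markers of cell types moved with TMG in the same comparison. Of 12 tested erythroid markers 6 were higher in TMG and 0 lower (3.01% of all genes were higher). Among the 6 was Sptb, the red cell spectrin beta chain, at log2 0.27 ± 0.04 (edgeR adjusted p = 0.00127). Of 3 tested mast cell markers 2 were lower (2.14% of all genes were lower), and both had TMG means under the 10 CPM of the filter. Cpa3, a mast cell protease, had 8.41 ± 2.67 CPM in TMG and 15.2 ± 5.97 in Ctrl (-0.87 ± 0.24, edgeR adjusted p = 0.0420). Ms4a2, a subunit of the IgE receptor, had 9.49 ± 2.40 CPM in TMG and 14.7 ± 4.19 in Ctrl (-0.64 ± 0.18, edgeR adjusted p = 0.0491; SD, n = 3 each). The third, Il1rl1, made up most of the mast cell sum and was at 0.25 ± 0.07 (edgeR adjusted p = 0.0657). Their part in the rise of Hba-a2 and Hbb-bs was not tested.

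**Figure D2:**
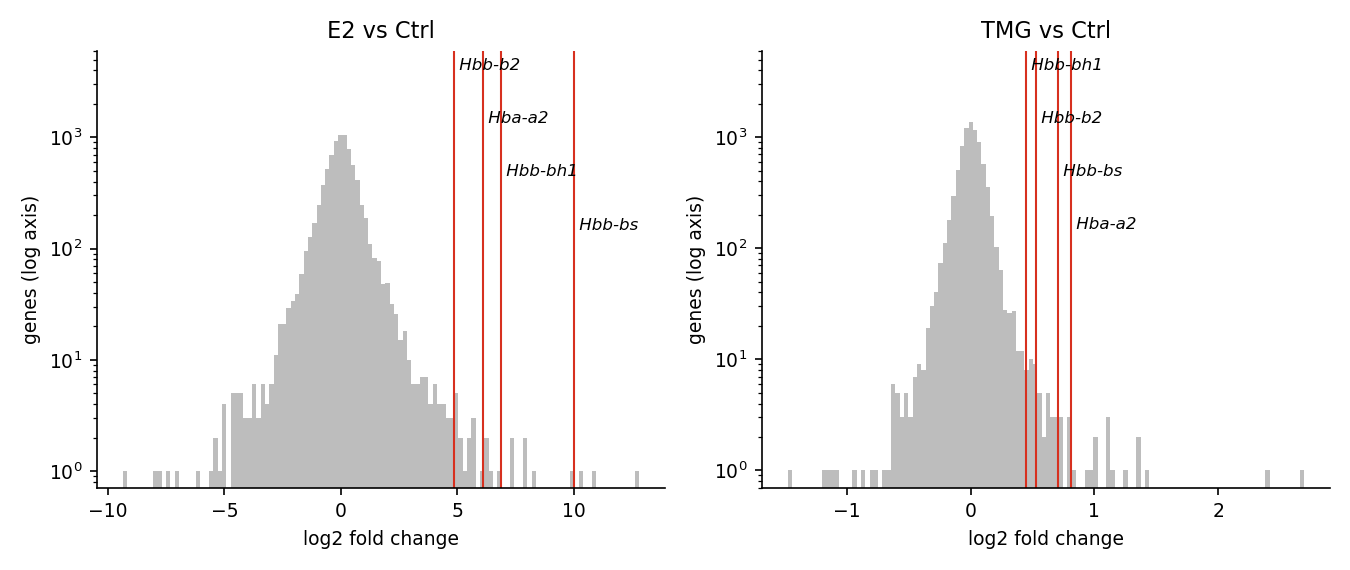
Histograms of edgeR log2 fold changes of 8273 genes for E2 vs Ctrl (left) and TMG vs Ctrl (right), with gene numbers on a log axis and red lines at the 4 tested globin genes. In E2 vs Ctrl the globin genes lie between 4.87 and 10.03, and in TMG vs Ctrl between 0.45 and 0.82, above most genes in each. In the fit shown, without a replicate block, Hbb-b2 and Hbb-bh1 did not pass the test in TMG vs Ctrl.

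In cells given E2, adding TMG raised the embryonic Hbb-bh1, and no other member passed the test. TMG_E2 against E2 had 12.8% of genes called and 5.61% called higher. Hbb-bh1 averaged 64.6 ± 4.55 TPM in TMG_E2 and 47.7 ± 6.55 TPM in E2 (SD, n = 3 each), a rise of log2 0.48 ± 0.09 (1.40-fold; edgeR adjusted p = 0.00365), the 26th highest of 8273 changes. All 3 TMG_E2 libraries were above all 3 E2 libraries, as was the case for 13.5% of all genes. The call held in each of 14 alternative fits, with log2 0.40 to 0.59 and edgeR or DESeq2 adjusted p from 0.000135 to 0.0289. Hbb-y, tested only without the filter (7.65% of genes called, 3.32% higher), was at 0.67 ± 0.33 (edgeR adjusted p = 0.256). Its 81 counts in TMG_E2 against 52 in E2 give a ratio of 1.59 (95% exact interval 1.11 to 2.30, counting error only). The embryonic alpha chain did not share the direction: Hba-x was at -0.12 ± 0.12 (edgeR adjusted p = 0.673), with 455 counts in TMG_E2 and 507 in E2.

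The adult chains differed little between these groups. Hba-a2 averaged 58235 ± 6386 TPM in TMG_E2 and 55927 ± 1319 TPM in E2 (log2 0.10 ± 0.08, edgeR adjusted p = 0.427). Hbb-bs averaged 61172 ± 1051 and 59068 ± 3510 TPM in TMG_E2 and E2 (0.09 ± 0.06, edgeR adjusted p = 0.397), and Hbb-b2 241 ± 37.3 and 246 ± 41.0 TPM (0.01 ± 0.10, edgeR adjusted p = 0.948). A single library decided the Hba-a2 value: without TMG_E2 replicate 1, which had 14238 CPM against 17841 and 18911 in the other TMG_E2 libraries, Hba-a2 was called higher at 0.22 ± 0.06 (edgeR adjusted p = 0.0162; 0.0162 to 0.908 over the alternatives).

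As a fold change, the effect of TMG was smaller in the presence of E2 for both main adult chains. This holds on the log2 scale of the fit, and differences in TPM were not compared. The interaction term, the TMG effect with E2 minus the TMG effect without it, had 0.931% of genes called and 0.665% called lower, and 2 of the 4 tested members were called, both lower. It was -0.71 ± 0.11 for Hba-a2 (edgeR adjusted p = 0.00536), which was past the test in each of 19 alternatives (adjusted p 6.38e-11 to 0.0319). It was -0.62 ± 0.12 for Hbb-bs (edgeR adjusted p = 0.0207). The Hbb-bs call was lost without E2 replicate 2 (edgeR adjusted p = 0.0636), TMG replicate 1 (0.0731), TMG replicate 2 (0.0603), Ctrl replicate 2 (0.0575) or Ctrl replicate 3 (0.0851), and its adjusted p was 4.80e-07 to 0.0851 over the 19 alternatives. Hbb-b2 was at -0.52 ± 0.29 (edgeR adjusted p = 0.542). For Hbb-bh1 the interaction (edgeR adjusted p = 0.999) rests on 10 counts in TMG and 8 in Ctrl, so whether its response to TMG differs with E2 could not be determined at this depth.

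**Figure D3:**
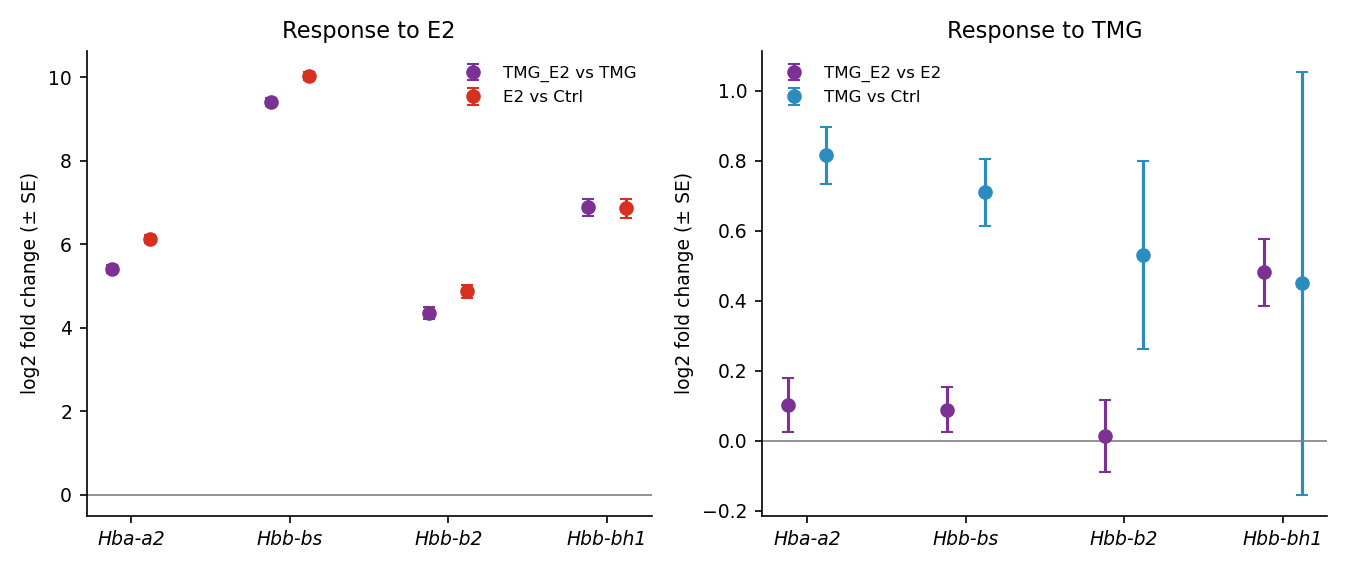
edgeR log2 fold changes (points) with SE (bars) of the 4 tested globin genes for the response to E2 (left, with and without TMG) and the response to TMG (right, with and without E2). On the right, Hba-a2 and Hbb-bs lie at 0.10 and 0.09 in TMG_E2 vs E2 against 0.82 and 0.71 in TMG vs Ctrl, and Hbb-bh1 lies at 0.48 in TMG_E2 vs E2.

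The balance between chains was compared as ratios of TPM within each library. For each ratio the 4 groups gave an average E2 effect and an average TMG effect, tested by exact permutation within the levels of the other treatment (two-sided, 400 arrangements, smallest p 0.005, Benjamini-Hochberg over 10 tests). Together the 6 genes made up 11.3%, 12.4% and 12.2% of transcripts in TMG_E2, 11.8%, 11.8% and 11.02% in E2, 0.161%, 0.170% and 0.171% in TMG, and 0.105%, 0.0929% and 0.101% in Ctrl. The summed share was higher with E2 by log2 6.51 on average (exact permutation p = 0.005, adjusted 0.01). It was higher with TMG by 0.40 on average (exact permutation p = 0.02, adjusted 0.0333), made of 0.75 in TMG against Ctrl, with no overlap, and 0.05 in TMG_E2 against E2, which overlapped. Paired by replicate number, the average TMG effect did not pass (exact permutation p = 0.0625, where 0.0312 is the smallest that 6 pairs allow).

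The ratio of alpha-like to beta-like RNA was near balance with E2 and strongly alpha-rich without it. It was 0.820, 0.997 and 1.03 in TMG_E2, 0.897, 0.947 and 0.989 in E2, 10.99, 14.1 and 16.1 in TMG, and 11.3, 12.4 and 13.4 in Ctrl. Libraries with E2 were all lower than those without (log2 -3.78 on average, exact permutation p = 0.005, adjusted 0.01). The average TMG effect was 0.07 (exact permutation p = 0.51, adjusted 0.567), so a rise of alpha relative to beta chains with TMG was not detected. With 1 library left out it was 0.0076 (without TMG replicate 3) to 0.14 (without TMG replicate 1), at exact permutation p from 0.16 to 0.945. The Hba-a2 row may hold reads of more than 1 alpha gene, as its sequence shows, so the ratio is that of the rows in the tables.

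Within the adult beta chains, Hbb-b2 made up 0.459%, 0.350% and 0.368% in TMG_E2, 0.472%, 0.360% and 0.410% in E2, 12.6%, 11.1% and 10.6% in TMG, and 14.3%, 11.9% and 12.4% in Ctrl. The Hbb-b2 to Hbb-bs ratio was lower with E2 (log2 -5.10, exact permutation p = 0.005, adjusted 0.01), and the TMG effect was -0.14 (exact permutation p = 0.205, adjusted 0.293). Paired by replicate number, that TMG effect had the smallest p that 6 pairs allow (exact permutation p = 0.0312, not adjusted). Both rows share reads, as their counts show.

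The embryonic chains were a smaller part of the beta-like RNA with E2, although their levels rose. Hbb-bh1 and Hbb-y together made up 0.119%, 0.110% and 0.107% of beta-like TPM in TMG_E2, 0.0919%, 0.0799% and 0.0826% in E2, 0.372%, 0.786% and 0.778% in TMG, and 0.200%, 0.982% and 0.921% in Ctrl. The E2 effect was log2 -2.63 (exact permutation p = 0.005, adjusted 0.01), where the libraries without E2 rest on 1 to 5 counts each. The average TMG effect was 0.25 (exact permutation p = 0.505, adjusted 0.567). With E2 alone considered, TMG_E2 exceeded E2 by 0.40 with no overlap, at the smallest p that 3 libraries against 3 allow (exact permutation p = 0.1). The Hbb-bh1 to Hbb-bs ratio gave the same picture, with an E2 effect of -2.69 (exact permutation p = 0.005, adjusted 0.01) and 0.39 in TMG_E2 against E2 (exact permutation p = 0.1).

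**Figure D4:**
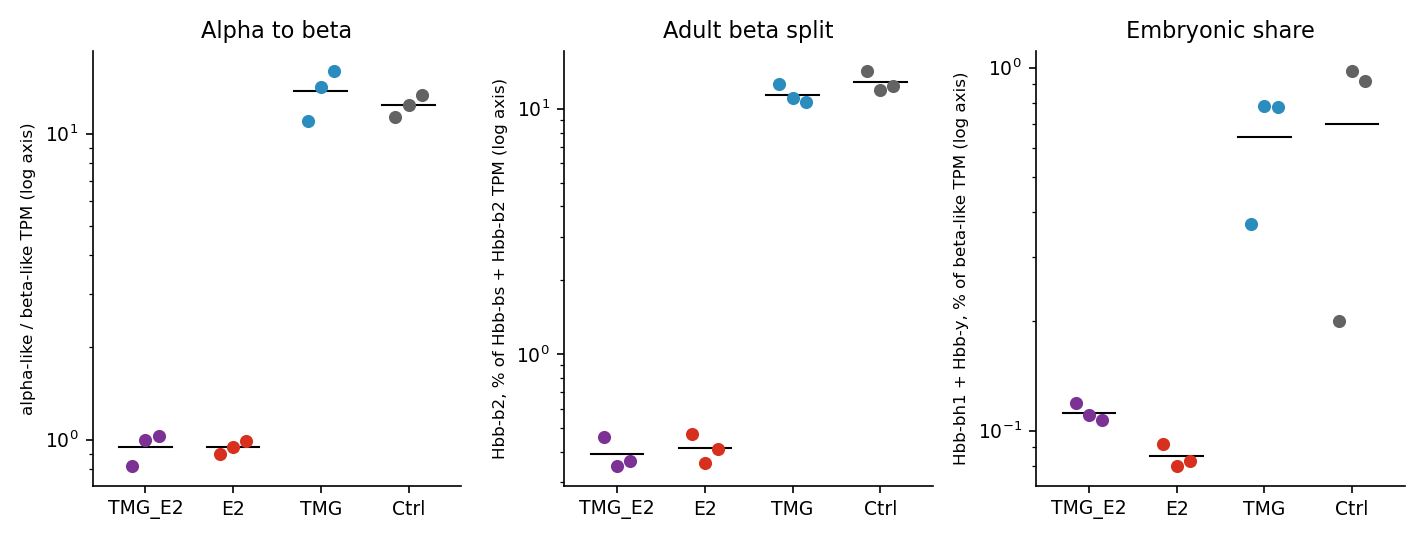
Ratio of alpha-like to beta-like TPM (left), Hbb-b2 as a percentage of adult beta TPM (middle) and Hbb-bh1 plus Hbb-y as a percentage of beta-like TPM (right) in each library (points) with group means (lines), on log axes. The alpha to beta ratio lies between 0.820 and 1.03 with E2 and between 10.99 and 16.1 without, and the embryonic share of the 3 TMG_E2 libraries lies above that of the 3 E2 libraries.

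Genes that serve hemoglobin production moved with the chains in part. Of 6 listed partners of globin synthesis 5 had a row (Ahsp is not analysed here). All 5 were higher in E2 than in Ctrl, as were 41.5% of all genes tested. Of these 5, Alas2 passed the filter only through libraries with E2 and thus had to differ. Alas2, which starts heme synthesis in erythroid cells, had 727 ± 15.5 CPM in TMG_E2, 657 ± 17.2 in E2, 4.38 ± 0.558 in TMG and 2.17 ± 0.424 in Ctrl (SD, n = 3 each). With TMG alone Alas2 was the 1 partner of 5 that edgeR called higher (log2 1.01 ± 0.14, edgeR adjusted p = 0.000488), as were Hba-a2 and Hbb-bs. Of all genes tested, edgeR called 3.01% higher there. Of the 5 partners, 3 were higher at an unadjusted p under 0.05 in edgeR, and DESeq2 called 3 higher. In TMG_E2 against E2 Alas2 rose by 0.15 ± 0.04 (edgeR adjusted p = 0.0280). Slc25a37, which imports iron into mitochondria, rose by 4.53 ± 0.04 with E2 and was lower in TMG_E2 than in E2 (-0.19 ± 0.04, edgeR adjusted p = 0.00280). Eif2ak1, the kinase that matches globin translation to heme supply, and Fech, which inserts iron into heme, also rose with E2. Neither passed the edgeR test in either TMG comparison.

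Of 23 listed regulators of globin genes 22 were tested. In E2 against Ctrl 11 were higher (41.5% of all genes were higher), 8 lower (41.2% of all genes were lower) and 3 did not pass. These counts are near the background, and the median log2 of the 22 was 0.08. Gata1 rose by 1.85 ± 0.04 (its reads may include those of the introduced fusion), Klf1, an activator of the adult beta gene, by 1.55 ± 0.05, and Lmo2, a GATA-1 partner, by 1.79 ± 0.04, while Myb, a progenitor factor, fell by 2.48 ± 0.04. In TMG against Ctrl 0 of 22 were called by edgeR, 7 had an unadjusted p under 0.05 (4 higher, 3 lower), and DESeq2 called 1. Over all genes 5.15% were called in that comparison, so a count of 0 among 22 is near the background. Gata1 was at 0.14 ± 0.04 (edgeR adjusted p = 0.0644) and Klf1 at 0.16 ± 0.06 (edgeR adjusted p = 0.126) in that comparison. In TMG_E2 against E2 0 were higher and 2 lower (7.14% of all genes were lower), with 1 higher and 6 lower at an unadjusted p under 0.05 in edgeR, and 1 higher and 2 lower by DESeq2. Bcl11a, a repressor of embryonic beta-like globin genes, had 132 ± 0.704 CPM in TMG_E2 and 146 ± 1.28 CPM in E2 (log2 -0.14 ± 0.04, edgeR adjusted p = 0.0156). Myb had 69.5 ± 3.50 CPM in TMG_E2 and 79.2 ± 3.55 CPM in E2 (-0.19 ± 0.05, edgeR adjusted p = 0.0165). Bcl11a did not pass in E2 against Ctrl (-0.02 ± 0.04, edgeR adjusted p = 0.622). Whether either change bears on Hbb-bh1 was not tested.

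Of the pair of genes that cycle O-GlcNAc, Oga passed the test with TMG and Ogt did not. Oga, which removes the sugar and is listed as Mgea5, had 435 ± 6.99 CPM in TMG_E2 and 328 ± 10.4 in E2 (log2 0.41 ± 0.03, edgeR adjusted p = 8.05e-06), and 288 ± 6.98 CPM in TMG and 224 ± 5.34 in Ctrl (0.36 ± 0.04, edgeR adjusted p = 1.73e-05). Its interaction was 0.05 ± 0.05 (edgeR adjusted p = 0.822), unlike the interactions of Hba-a2 and Hbb-bs, which passed the test. Ogt, which adds it, was at 0.13 ± 0.04 in TMG_E2 against E2 (edgeR adjusted p = 0.0604) and 0.08 ± 0.04 in TMG against Ctrl (edgeR adjusted p = 0.338).

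The genes whose pattern over the 12 libraries lay nearest to each tested member were found by the root mean square difference of centred log2 CPM, a description with no test in which the E2 response weighs most. Nearest to Hba-a2 were Atp1b2, a sodium pump subunit (0.30), Kalrn, a guanine nucleotide exchange factor (0.34), and Nxpe2 (0.34). Nearest to Hbb-bs were Slc4a1, the band 3 anion exchanger of the red cell membrane (0.40), Dmtn, the red cell skeleton protein dematin (0.50), and Tmem184a (0.59). Among the 3 nearest to Hbb-b2 were Hebp1, a heme-binding protein (0.20), and BC057675 (0.24). Nearest to Hbb-bh1 were Csf2rb and Csf2rb2, beta subunits of cytokine receptors (0.37 and 0.51), and Kalrn (0.49), which was also near Hba-a2.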

How the data were processed

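The 12 RNA libraries of G1E-ER4 cells were grouped by sample title. Per the series design text and the submitters' processing notes, stranded poly(A) read pairs passed through FastQC 0.11.2, RSEM 1.2.22 with GRCm38 as the genome (Bowtie2 is listed too), and edgeR 3.14.0 in R 3.2.2. Whether RSEM used strand is not stated in the labels. In the deposited expected counts, RSEM divided reads between genes, so values can be fractional. The TPM values, per the file headers, are scaled by the authors for length and depth. The deposited FPKM values served only as an alternative unit for the chain ratios.

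For testing, expected counts were rounded and fitted for all genes with edgeR 4.0.16 in R 4.3.3. Genes over 10 CPM in at least 2 of 12 libraries were kept (8273 of 32699), libraries were scaled by TMM, and a quasi-likelihood test was run on 4 group means with Benjamini-Hochberg adjustment over the genes kept and 0.05 as the threshold. The SE comes from the F statistic. Ratios used TPM and exact permutation under Python 3.11.15, and scipy 1.17.1 gave the exact intervals of counts. Before the logarithm, 0.01 TPM was added for the embryonic share and the Hbb-bh1 to Hbb-bs ratio, and nothing for the others. Scripts were tested on simulated data. Intervals and floors of 3 counts cover counting error only, and the depth of 17589380 to 23178721 counts sets 3 counts at 0.129 to 0.171 CPM.

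The members, lists and tests were chosen with earlier results of these data known. The text names the 6 members, the 3 nearest genes of each tested member, and Gata1, Klf1, Bcl11a, Ogt and Oga. It also names partners and regulators called in TMG vs Ctrl or TMG_E2 vs E2, and those with the 3 smallest p-values of each list in E2 vs Ctrl. Eif2ak1 and Fech fall outside this rule and were added with their values known. Promoters come from RefSeq on GRCm38.p6 (4 of 6 members matched) and coding sequences from GENCODE M21.

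All pairs of replicates differed by more than counting noise, with chi-square over its degrees of freedom at 2.22 to 10.7. Deviations from the group means correlated between libraries of the same number at 0.108, 0.278 and 0.112 between E2 and Ctrl. The values were 0.525, 0.149 and 0.412 between TMG_E2 and TMG, and 0.285, 0.182 and 0.201 between TMG_E2 and E2. All of these exceed 0.1, a hint of pairing from the data and not from the labels. The results given come from the fit without the replicate block. The block was run as an alternative, beside other scalings, filters, DESeq2 1.42.0, fits of the compared groups alone, FPKM or CPM in place of TPM, another pseudocount, other choices of chains in the ratios, and each library left out in turn. Single-gene values of some listed genes are not reported here.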

Additional observations from a re-analysis of the deposited data

Results flagged for a closer look

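The fold change with TMG differed between cells with and without E2 for 4 genes, by the interaction term of the edgeR fit. These were sought among the members, partners, regulators, other globin superfamily genes, Ogt and Oga, and 0.931% of all genes were called. Erythroid markers were not searched for this count, and 2 of 12 tested were called lower, Alas2 among them. The interaction was -0.71 for Hba-a2 (edgeR adjusted p = 0.00536) and -0.62 for Hbb-bs (edgeR adjusted p = 0.0207). It was -0.86 for Alas2, the erythroid enzyme that starts heme synthesis (edgeR adjusted p = 0.00986), with log2 0.15 in TMG_E2 vs E2 and 1.01 in TMG vs Ctrl. It was -0.95 for Hbq1b, a theta-like alpha globin gene (edgeR adjusted p = 0.0294), with log2 -0.02 in TMG_E2 vs E2 and 0.93 in TMG vs Ctrl. The expression filter passed Alas2 and Hbq1b only through libraries with E2. Groups of 3 libraries are too few to look for single outlying samples.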

How the results depend on the processing

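Under other settings, 87 of 89 counts of globin genes called and chain ratios were rated unchanged. For a ratio this means the same direction and side of the threshold, and for a count at most a small move. Over all alternatives the counts were 3 to 6 in E2 vs Ctrl and in TMG_E2 vs TMG, 2 to 3 in TMG vs Ctrl and 4 to 6 in TMG_E2 vs Ctrl. The number of members tested changed with the filter and with the adult beta rows added together. Of 188 single-gene values 186 kept direction and side of the threshold. With the replicate block, the TMG effect on the Hbb-b2 to Hbb-bs ratio (-0.14) passed at exact permutation p = 0.0312, and that on the summed share (0.40) did not, at exact permutation p = 0.0625. Hbb-b2 in TMG vs Ctrl then passed at 0.52 ± 0.13 (edgeR adjusted p = 0.0152; 0.0152 to 0.675 over its alternatives). The block changed no other call. In TMG vs Ctrl same-numbered libraries correlated at 0.0876, 0.0295 and 0.188, where libraries of different number correlated at -0.182 to 0.0748. In TMG_E2 vs Ctrl the values were 0.0173, -0.12 and 0.186, against -0.16 to 0.183 for different numbers. Whether libraries are paired in these 2 comparisons cannot be told from these values. With library size alone as the scaling, Hbb-b2 in TMG_E2 vs E2 was -0.0037, and the median of all genes moved to -0.0991 in E2 vs Ctrl, -0.108 in TMG_E2 vs TMG and -0.126 in TMG_E2 vs Ctrl. With a library left out, globin genes called numbered 1 to 2 in TMG_E2 vs E2 and 1 to 2 for the interaction. The TMG effect then ranged from -0.12 to 0.44 for the embryonic share and from -0.17 to 0.39 for the Hbb-bh1 to Hbb-bs ratio, Hbb-b2 in TMG_E2 vs E2 from -0.087 to 0.16, and the Hbb-bh1 interaction from -0.38 to 0.39. The signs of these uncalled values turned without Ctrl replicate 1 (both ratios), TMG replicate 3 (Hbb-bh1 to Hbb-bs), TMG_E2 replicate 1, E2 replicate 2 or E2 replicate 3 (Hbb-b2), and E2 replicate 3, TMG replicate 1, Ctrl replicate 2 or Ctrl replicate 3 (Hbb-bh1), and the cause was not tested. Of 162 such counts and ratios 153 were unchanged (the same count, or for a ratio the same call and direction). Of 168 single-gene values 155 kept their call and direction. Depth limits Hba-x, Hbb-y and Hbb-bh1 without E2, at 0 to 10 counts per group.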

Other observations

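Of 8 listed other genes of the globin superfamily, 6 had a row and Hbq1b was the one tested, chosen for mention after its values were seen. It had 26.5 ± 2.35 CPM in TMG_E2, 26.8 ± 0.774 in E2, 2.35 ± 0.285 in TMG and 1.23 ± 0.128 in Ctrl (SD, n = 3 each). It was higher in E2 than in Ctrl by log2 4.43 ± 0.11 (edgeR adjusted p = 5.00e-16) and higher in TMG than in Ctrl by 0.93 ± 0.17 (edgeR adjusted p = 0.00534). Its CPM was over 10 in libraries with E2 alone, through which it was kept. Hbq1a and Hbb-bh2 reached at most 0.241 and 0.135 CPM in any library, and Mb and Cygb, which encode myoglobin and cytoglobin, were at 0 in 12 of 12.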
